A study of Homo sapiens with 15 samples.

Results

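The 10 genes described here belong to the liver X receptor (LXR) pathway and to cholesterol efflux: the receptors NR1H3 and NR1H2, the exporters ABCA1 and ABCG1, the apolipoprotein APOE, and the targets MYLIP, SREBF1, SCD, LPCAT3 and SMPDL3A. They were chosen by symbol, with earlier results of these data known, and all 10 were found among the 20468 genes of each expression table. RNA-Seq was used to ask how bone marrow stromal cells change the transcriptome of multiple myeloma cells, through shared medium alone or together with contact. The myeloma cells were MM.1S and RPMI8226, which are established human lines, and the stromal cells were HS5, an established human line. In monoculture (MONO) the myeloma cells grew alone. In the coculture, myeloma cells sat both in an upper transwell (TSW), which shared only medium with the stromal cells, and in the lower chamber (CO), where they touched them. Cells of TSW and CO thus came from the same wells and medium. Before sequencing, cells were sorted as CD90- CD38+ cells, coculture cells after trypsin, and some HS5 RNA may remain in CO. MM.1S had 3 libraries in each condition and RPMI8226 had 2, which makes 15 libraries.

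LXRs are nuclear receptors that bind oxysterols, the oxidized derivatives of cholesterol, and act on DNA as a pair with a retinoid X receptor. When sterols accumulate they raise the transcription of genes that export cholesterol, that lower its uptake, and that make and remodel fatty acids. The pathway is best known from the liver and from macrophages, where it links cholesterol handling to inflammation.

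Expression was given as RPKM, in which the pair-end tags (PETs) of a gene are divided by the length of its transcript and by the total of the library. The libraries held between 9009028 and 19050880 PETs on genes. For a transcript 2 kb long, 1 PET was equal to an RPKM of 0.0262 in the deepest and 0.0555 in the shallowest library. A gene was tested in a line when its mean RPKM over the libraries of that line was at least 1. This left 10153 genes in MM.1S, with 8 of the 10 LXR pathway genes, and 10319 genes in RPMI8226, with 9 of the 10. APOE was below the minimum in both lines and NR1H3 in MM.1S. ABCA1 in both lines (mean RPKM of 0.0981 and 0.937 in MONO) and ABCG1 in MM.1S (0.233) reached it only through TSW and CO. Conditions were compared with limma on log2(RPKM + 1), and a call required both a fold change over 1.5 and a p below 0.05 after Benjamini-Hochberg adjustment. The files do not say whether the libraries of a condition came from separate cultures, so the p-values measure only the spread between these libraries. TSW vs MONO and CO vs MONO share the MONO libraries, and their values are given side by side. The tables of the lines were normalized separately, and no test was made between lines.

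In TSW vs MONO of MM.1S, 6 of the 8 tested genes of the pathway were called higher, where 6.48% of all tested genes were, and 0 were called lower, against 4.16%. In CO vs MONO of MM.1S, 6 were called higher, against 7.13%, and 0 lower, against 4.65%. In RPMI8226, 8 of the 9 tested genes were called higher in TSW vs MONO, against 14.5%, and 0 lower, against 17.9%. In CO vs MONO of RPMI8226, 8 were called higher, against 16.4%, and 0 lower, against 22.9%. In CO vs TSW of MM.1S, limma called 0 of the 8 higher, against 0.374% of all tested genes, and 0 lower, against 0.0394%, with 0 at an unadjusted p under 0.05 and 0 called by voom on PET counts. In CO vs TSW of RPMI8226, limma called 0 of the 9 higher, against 1.90%, and 0 lower, against 2.39%, with 5 at an unadjusted p under 0.05 and 0 called by voom. In each comparison with MONO, voom also called 6 of the tested genes higher and 0 lower in MM.1S, and 8 higher and 0 lower in RPMI8226. An unadjusted p under 0.05 was reached there by 7 genes in MM.1S and by 8 in RPMI8226 in each comparison.

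**Figure D1:**
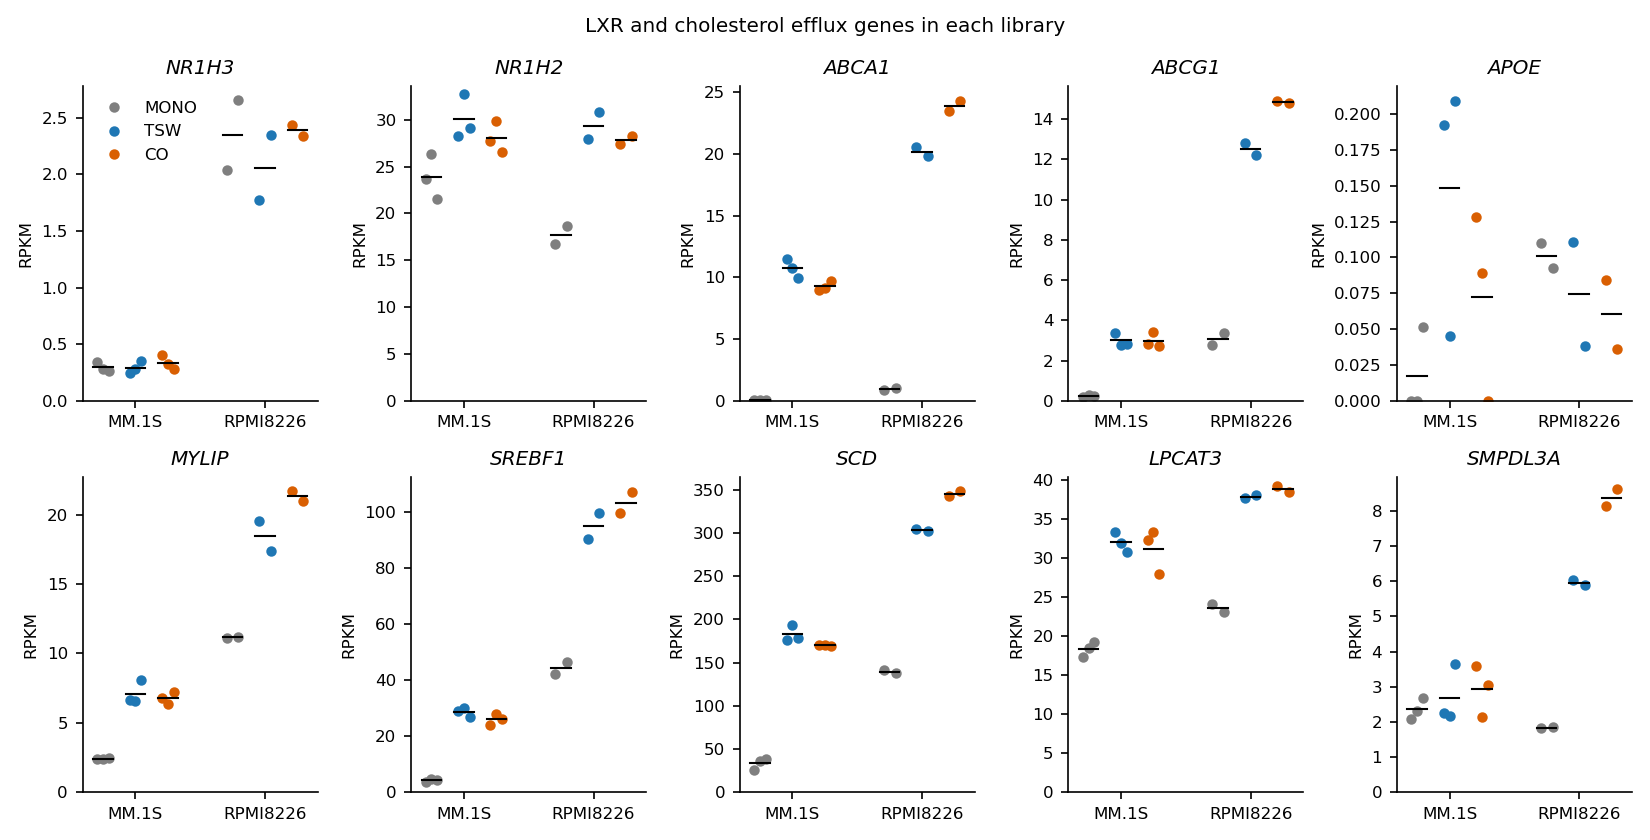
RPKM of the 10 genes in each library, by line and condition, with 1 point per library and a bar at the mean, each panel on its own axis from 0. ABCA1 lay between 0.0818 and 0.111 in MM.1S MONO and between 8.98 and 11.5 in the MM.1S coculture libraries, and APOE did not exceed 0.209 in any library.

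The labelled cell type was checked with 10 plasma cell markers. In MM.1S all 10 were tested, and their RPKM over the libraries ran from 143 to 184 for SDC1, from 38.4 to 65.0 for CD38, from 97.7 to 158 for IRF4, from 24.7 to 53.6 for PRDM1 and from 404 to 795 for XBP1. MZB1 lay between 402 and 682 in MM.1S, JCHAIN between 1924 and 4102, POU2AF1 between 66.3 and 124, SLAMF7 between 64.7 and 99.0, and TNFRSF17 between 34.1 and 216. In RPMI8226, 9 of the 10 were tested, and SLAMF7 was near 0, between 0.0184 and 0.104. The RPKM of the others in RPMI8226 ran from 70.4 to 98.7 for SDC1, from 16.0 to 53.7 for CD38, from 3.96 to 73.0 for TNFRSF17, from 37.2 to 78.9 for IRF4 and from 7.81 to 18.9 for PRDM1. XBP1 lay between 191 and 466 in RPMI8226, MZB1 between 523 and 1133, JCHAIN between 1366 and 2927, and POU2AF1 between 59.7 and 139. The plasma cell markers changed too: in TSW vs MONO of MM.1S 3 were called higher and 2 lower, and in CO vs MONO 2 higher and 2 lower, with medians of -0.07 and 0.05 against 0.01 over all tested genes. In RPMI8226, 6 were called higher and 2 lower in either comparison, with medians of 0.94 for TSW vs MONO and 1.01 for CO vs MONO, against -0.08 and -0.09 over all tested genes. TNFRSF17 fell in both lines, from a mean RPKM of 173 in MONO to 48.2 in TSW and 37.9 in CO of MM.1S, and from 70.9 to 5.42 and 4.05 in RPMI8226. In bulk RNA a smaller number of cells of a kind and less RNA per cell cannot be told apart.

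RNA of stromal cells was followed with 34 markers. In MM.1S their summed RPKM was 36.8, 39.3 and 38.1 in the MONO libraries, 29.4, 29.2 and 32.2 in TSW, and 222, 240 and 208 in CO. The TSW sums lay below the MONO sums, and the CO sums lay far above both. Between 13 and 19 of the markers were at 0 in each MONO and TSW library of MM.1S, against 2 to 4 in CO. CAV1 was the most abundant marker in MM.1S MONO, between 17.4 and 17.7, S100A6 in TSW, between 10.8 and 14.3, and MMP1 in CO, between 41.0 and 46.9. In RPMI8226, FN1 alone had an RPKM of 3990 and 4310 in MONO, 1678 and 1962 in TSW, and 2007 and 2169 in CO, and was the most abundant marker in each library. Without FN1 the summed RPKM in RPMI8226 was 102 and 108 in MONO, 204 and 230 in TSW, and 298 and 391 in CO. The sum without FN1 thus rose in TSW as well, and S100A6 made up most of it there, with a mean of 72.2 in MONO, 191 in TSW and 146 in CO. Between 17 and 20 of the markers were at 0 in each MONO and TSW library of RPMI8226, against 4 in CO.

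The stromal markers COL1A2 and MMP1 had no PET in any MONO or TSW library of either line. COL1A2 reached an RPKM of 10.8, 13.4 and 10.2 in CO of MM.1S and of 4.05 and 5.85 in CO of RPMI8226. The 3 most abundant markers in CO were MMP1 (mean 44.2 ± 2.97, SD, n = 3), CXCL8 (23.7) and S100A6 (18.5 ± 2.56) in MM.1S, and FN1 (2088 ± 114, SD, n = 2), S100A6 (146 ± 16.2) and CXCL8 (55.3 ± 17.8) in RPMI8226. Of 19 tested markers in MM.1S, 1 was called higher and 2 lower in TSW vs MONO, 16 higher and 1 lower in CO vs MONO, and 16 higher and 0 lower in CO vs TSW. Their median log2 fold change in TSW vs MONO was 0.00, against 0.01 over all tested genes. Of 16 tested markers in RPMI8226, 3 were called higher and 2 lower in TSW vs MONO, 14 higher and 1 lower in CO vs MONO, and 11 higher and 0 lower in CO vs TSW. Their median in TSW vs MONO was 0.00, against -0.08. In both lines most of the tested markers had a mean RPKM under 1 in MONO and TSW and passed the minimum only through CO, so the counts called higher in CO follow in part from the filter. With other filters, scales, scalings or libraries the count called higher in MM.1S ran from 5 to 22 for CO vs MONO and from 4 to 22 for CO vs TSW. That in RPMI8226 ran from 4 to 19 and from 3 to 16. The count called lower in TSW vs MONO of MM.1S was 4 without MONO replicate 1. The S100A6 call in TSW vs MONO of MM.1S, a log2 fold change of 0.60, was lost without MONO replicate 3 (0.47), without TSW replicate 3 (0.49) and with quantile normalization (0.53). CO values of the 10 genes are therefore given with the TSW values, where COL1A2 and MMP1 were at 0. What part stromal RNA had in the CO values was not tested.

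**Figure D2:**
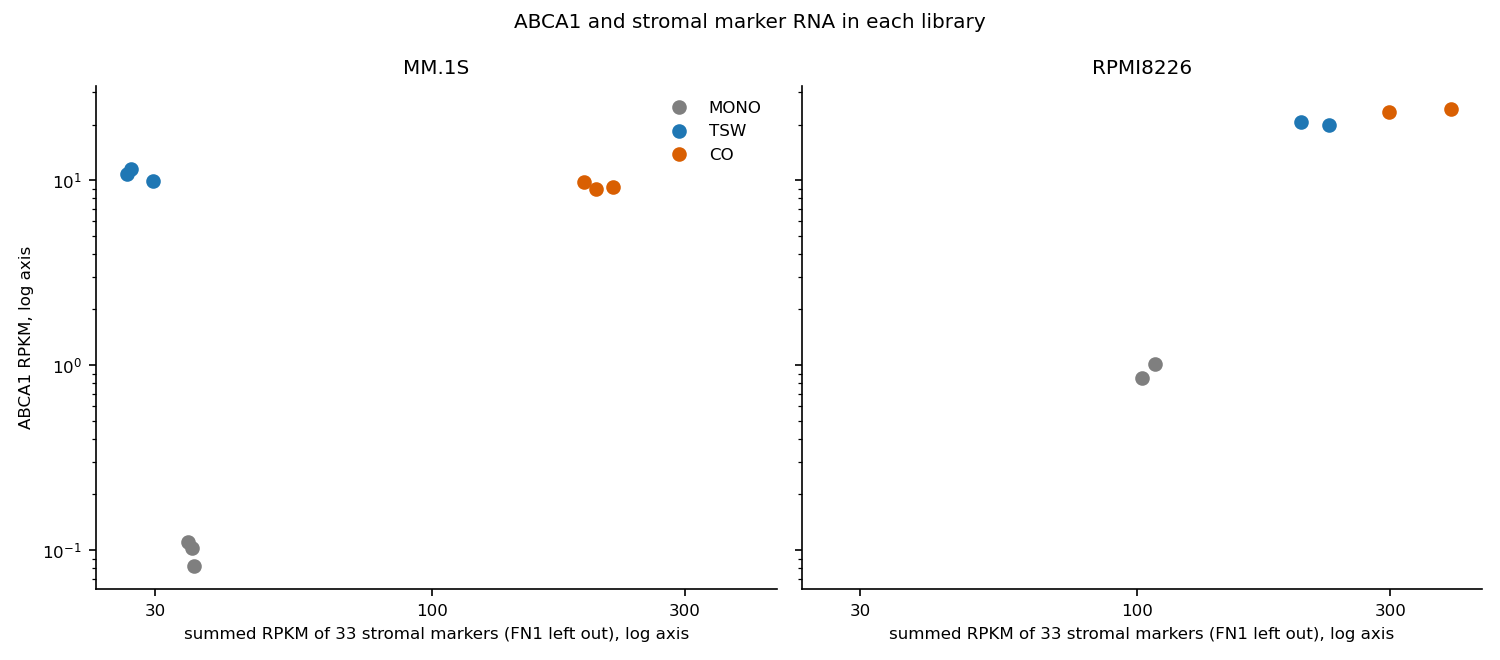
ABCA1 RPKM in each library against the summed RPKM of the stromal markers with FN1 left out, both on log axes, 1 point per library. In MM.1S the TSW libraries had ABCA1 values of 9.92 to 11.5 at marker sums of 26.6 to 29.7, below the MONO sums of 34.7 to 35.6, and in RPMI8226 the marker sums rose from MONO through TSW to CO.

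Promoter sequence is shown for the 5 genes that were called higher in both coculture conditions of both lines and have an entry in the RefSeq promoter table, which are ABCA1, MYLIP, SREBF1, SCD and LPCAT3. These genes moved together, and the letters in front of their starts can be set side by side. ABCG1 and SMPDL3A have no entry. Each sequence is the stretch of 250 bases upstream of the annotated start in GRCh38.p14, written 5′ to 3′ in the direction of transcription. ABCA1 lies on the minus strand at chr9:104928156-104928405, MYLIP on the plus strand at chr6:16128836-16129085, and SREBF1 on the minus strand at chr17:17836987-17837236. SCD lies on the plus strand at chr10:100346983-100347232 and LPCAT3 on the minus strand at chr12:7018477-7018726. Capitals mark matches to a motif: in ABCA1 the 12 letters compared with a direct repeat of the nuclear receptor element, and in MYLIP, SCD and LPCAT3 the CCAAT box or its reverse complement.
ABCA1: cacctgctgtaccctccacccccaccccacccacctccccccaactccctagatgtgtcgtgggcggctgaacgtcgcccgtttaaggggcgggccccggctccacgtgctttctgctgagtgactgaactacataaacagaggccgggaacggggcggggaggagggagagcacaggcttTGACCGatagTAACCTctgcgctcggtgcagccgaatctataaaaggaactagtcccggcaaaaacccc
MYLIP: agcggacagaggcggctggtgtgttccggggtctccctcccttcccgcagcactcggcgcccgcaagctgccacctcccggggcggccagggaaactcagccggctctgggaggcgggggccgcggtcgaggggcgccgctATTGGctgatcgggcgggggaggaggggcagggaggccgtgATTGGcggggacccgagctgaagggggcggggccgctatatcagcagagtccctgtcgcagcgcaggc
SREBF1: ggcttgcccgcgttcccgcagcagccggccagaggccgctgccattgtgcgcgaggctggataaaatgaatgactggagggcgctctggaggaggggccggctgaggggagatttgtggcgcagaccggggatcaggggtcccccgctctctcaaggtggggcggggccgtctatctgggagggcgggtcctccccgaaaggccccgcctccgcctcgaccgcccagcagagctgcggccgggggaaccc
SCD: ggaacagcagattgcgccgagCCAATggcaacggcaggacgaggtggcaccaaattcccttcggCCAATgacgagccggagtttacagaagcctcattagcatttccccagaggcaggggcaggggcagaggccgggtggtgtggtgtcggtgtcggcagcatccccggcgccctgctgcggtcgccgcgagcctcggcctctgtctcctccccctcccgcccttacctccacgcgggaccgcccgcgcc
LPCAT3: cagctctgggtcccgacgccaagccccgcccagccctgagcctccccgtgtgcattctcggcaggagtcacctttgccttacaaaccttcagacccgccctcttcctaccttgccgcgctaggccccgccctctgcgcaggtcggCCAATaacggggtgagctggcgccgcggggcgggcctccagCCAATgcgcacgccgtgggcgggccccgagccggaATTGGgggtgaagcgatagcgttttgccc

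The motifs were searched on both strands in 300 bases per start, 250 before and 50 after it, in 35116 windows of 27305 genes. Windows were found for 8 of the 10 genes. The direct repeat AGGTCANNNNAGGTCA, the kind of site LXRs bind, was searched with up to 3 mismatches in its 12 fixed letters. ABCA1 held a match with 2 mismatches on the opposite strand, from -69 to -54 relative to the start. A match with at most 2 mismatches was present in 2.34% of all windows, and with at most 3 mismatches in 18.6%. No window of the other 7 genes held one. A lone AGGTCA, which overlaps the direct repeat and was present in 13.8% of all windows, was found in 1 of the 4 windows of NR1H3, from -140 to -135. The CCAAT box, present in 34.6% of all windows, was found 2 times in MYLIP, at -109 to -105 and -68 to -64, and 2 times in SCD, at -229 to -225 and -186 to -182. LPCAT3 held 3 matches to it, at -105 to -101, -64 to -60 and -29 to -25. It was also found in 1 window of NR1H3 and in 2 of the 3 windows of APOE. The sterol element core TCACNCCAC (1.13% of all windows), the AP-1 site TGANTCA (7.71%) and the STAT site TTCNNNGAA (7.66%) were in no window of the 8 genes. SREBF1 and NR1H2 held no match to any motif searched. The GC content of the windows was 62.7% in ABCA1, 73.7% in MYLIP, 71.0% in SREBF1, 66.3% in SCD, 70.0% in LPCAT3 and 57.7% in NR1H2, against a median of 58.7% over all windows. A match describes letters only, and a missing match says only that the letters are not in that window.

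**Figure D3:**
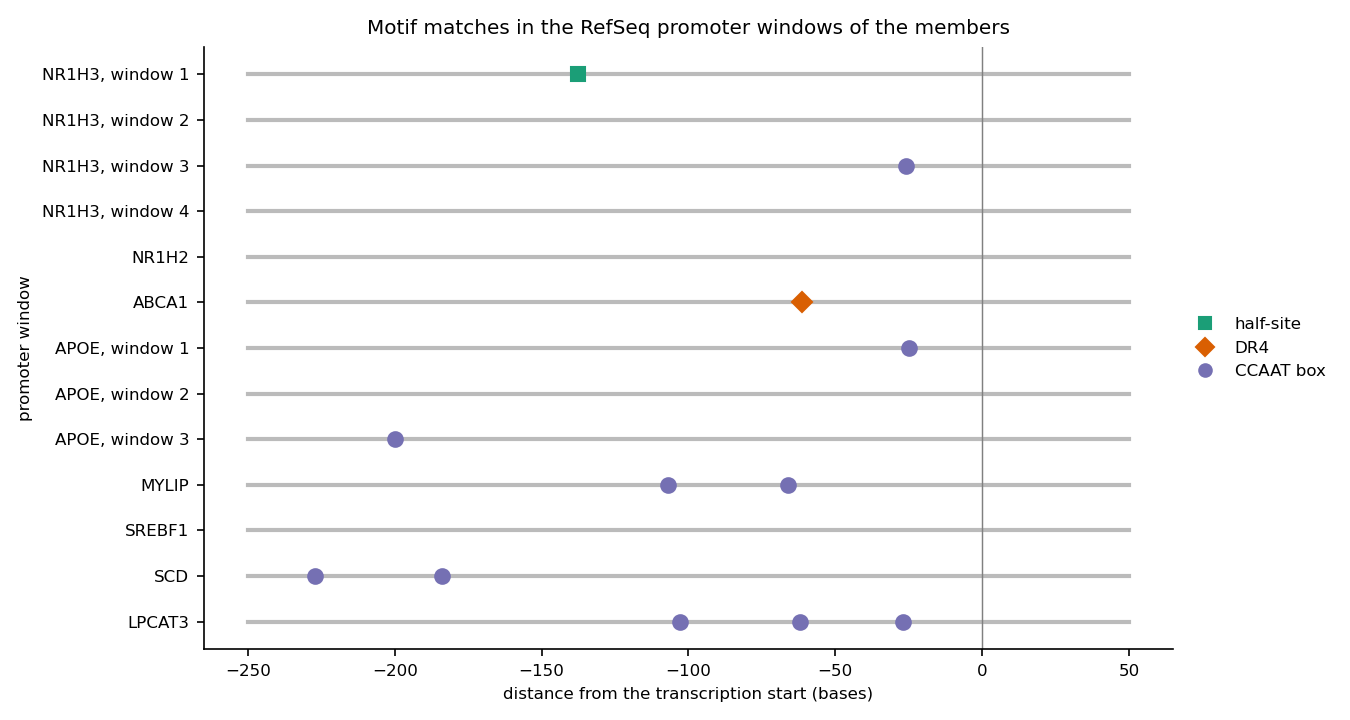
Motif matches in the promoter windows of the 8 genes with an entry, drawn by distance in bases from the annotated start, 1 grey line per window and 1 symbol per match at its centre. The direct repeat (DR4) was matched only in ABCA1, from -69 to -54, and LPCAT3 held 3 CCAAT boxes.

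The receptors differed in abundance. NR1H2 (Entrez 7376, chr19:50376457-50383388) encodes LXR beta, and NR1H3 (Entrez 10062, chr11:47248300-47269033) encodes LXR alpha. All gene coordinates are those of GRCh38. The RPKM of NR1H2 in MM.1S was 23.7, 26.4 and 21.5 in MONO, 28.3, 32.8 and 29.1 in TSW, and 27.7, 29.9 and 26.6 in CO. Every TSW and CO value was above every MONO value, in CO by a narrow margin. Its log2 fold change was 0.32 (standard error 0.10, adjusted p = 0.0363) in TSW vs MONO and 0.23 (standard error 0.10, adjusted p = 0.106) in CO vs MONO, and neither was called. In RPMI8226, NR1H2 had 16.7 and 18.7 in MONO, 27.9 and 30.8 in TSW, and 27.4 and 28.3 in CO. Both MONO libraries were low, and the TSW and CO values overlapped. The log2 fold change of NR1H2 in RPMI8226 was 0.70 (standard error 0.08, adjusted p = 3.88e-05) in TSW vs MONO and 0.63 (standard error 0.08, adjusted p = 6.80e-05) in CO vs MONO, both called. Without MONO replicate 1 the latter was 0.55, below the fold change threshold, with an adjusted p of 0.00123.

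NR1H3 was scarce in MM.1S and was not tested there. Its RPKM was 0.343, 0.284 and 0.262 in MONO, 0.244, 0.279 and 0.353 in TSW, and 0.408, 0.327 and 0.279 in CO, on 8 to 17 PETs per library. The conditions overlapped. In RPMI8226, NR1H3 had 2.04 and 2.66 in MONO, 1.77 and 2.35 in TSW, and 2.44 and 2.34 in CO. The conditions overlapped there as well. Its log2 fold change was -0.13 (standard error 0.13, adjusted p = 0.380) in TSW vs MONO and 0.02 (adjusted p = 0.882) in CO vs MONO. NR1H3 overlaps ACP2 in the annotation, and strand use in counting is not given in the sources used here. By mean RPKM, a level per length, NR1H2 exceeded NR1H3 in each condition, with 23.9 against 0.296 in MM.1S MONO and 17.7 against 2.35 in RPMI8226 MONO.

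ABCA1 (Entrez 19, chr9:104781006-104928155) moves cholesterol and phospholipid out of the cell onto lipid-poor apolipoproteins. Its RPKM in MM.1S was 0.102, 0.0818 and 0.111 in MONO, 11.5, 10.8 and 9.92 in TSW, and 8.98, 9.14 and 9.74 in CO. ABCA1 was close to 0 in each MONO library and high in each coculture library, with a wide gap between them. The MONO values rested on 10 to 17 PETs per library, and the coculture values on 1420 to 1788. The ratio of mean RPKM was 109 for TSW to MONO and 94.7 for CO to MONO. On the log2(RPKM + 1) scale, which understates changes of genes with low RPKM, the fold change was 3.41 (standard error 0.09, adjusted p = 2.21e-09) in TSW vs MONO and 3.23 (standard error 0.09, adjusted p = 1.58e-09) in CO vs MONO. By voom the log2 fold changes were 6.76 and 6.55, with a standard error of 0.22 for each. Ordered by log2 fold change on the former scale, ABCA1 ranked 6 of the 10153 tested genes for TSW vs MONO and 14 for CO vs MONO.

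In RPMI8226, ABCA1 had 0.852 and 1.02 in MONO, 20.6 and 19.8 in TSW, and 23.5 and 24.3 in CO. The order was MONO, TSW, CO, without overlap between neighbours. The ratio of mean RPKM was 21.6 for TSW to MONO and 25.5 for CO to MONO. The log2 fold change was 3.45 (standard error 0.09, adjusted p = 7.57e-10) in TSW vs MONO and 3.68 (standard error 0.09, adjusted p = 4.01e-10) in CO vs MONO, higher in each coculture library than in each MONO library. From MONO to TSW the stromal marker sums without FN1 fell in MM.1S and rose in RPMI8226, while ABCA1 rose in both lines. ABCA1 overlaps NIPSNAP3B in the annotation, whose mean RPKM did not exceed 0.330 in any condition of either line.

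ABCG1 (Entrez 9619, chr21:42199689-42297244) passes cholesterol to high density lipoprotein particles. In MM.1S its RPKM was 0.174, 0.276 and 0.250 in MONO, 3.38, 2.78 and 2.84 in TSW, and 2.84, 3.43 and 2.71 in CO. MONO was low in each library, on 17 to 57 PETs, and the TSW and CO values overlapped. Mean RPKM rose by a ratio of 12.9 from MONO to TSW and of 12.8 from MONO to CO. The log2 fold change was 1.70 (standard error 0.10, adjusted p = 1.32e-06) in TSW vs MONO and 1.69 (standard error 0.10, adjusted p = 1.01e-06) in CO vs MONO, and 3.63 by voom in either. In RPMI8226, ABCG1 had 2.78 and 3.38 in MONO, 12.8 and 12.2 in TSW, and 14.9 and 14.8 in CO. The conditions did not overlap, with MONO lowest and CO highest. The ratios were 4.06 for TSW and 4.82 for CO, with log2 fold changes of 1.73 (standard error 0.10, adjusted p = 1.38e-07) and 1.96 (standard error 0.10, adjusted p = 4.35e-08).

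APOE (Entrez 348, chr19:44905796-44909393) encodes an apolipoprotein that accepts exported cholesterol and is an LXR target in macrophages. It had 0, 0 and 1 PET in the MONO libraries of MM.1S, 4, 1 and 4 in TSW, and 3, 2 and 0 in CO, with an RPKM of at most 0.209. In RPMI8226 it had 2 and 2 PETs in MONO, 3 and 1 in TSW, and 2 and 1 in CO, with an RPKM of at most 0.111. The conditions overlapped in RPKM in MM.1S, and in RPMI8226 both MONO values (0.110 and 0.0925) were above both CO values (0.0840 and 0.0365), on 1 or 2 PETs each. APOE was below the minimum mean RPKM for a test in either line.

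MYLIP (Entrez 29116, chr6:16129086-16163887) encodes a ubiquitin ligase through which LXRs lower the uptake of cholesterol. Its RPKM in MM.1S was 2.42, 2.39 and 2.50 in MONO, 6.67, 6.61 and 8.06 in TSW, and 6.81, 6.34 and 7.23 in CO. The MONO libraries were close together and low, and the coculture conditions overlapped. Its log2 fold change was 1.23 (standard error 0.10, adjusted p = 9.50e-06) in TSW vs MONO and 1.18 (standard error 0.10, adjusted p = 1.27e-05) in CO vs MONO, at ratios of mean RPKM of 2.92 and 2.79. In RPMI8226, MYLIP had 11.1 and 11.2 in MONO, 19.5 and 17.4 in TSW, and 21.7 and 21.0 in CO. Its order there was MONO, TSW, CO without overlap, at log2 fold changes of 0.67 (standard error 0.08, adjusted p = 3.90e-05) and 0.87 (standard error 0.08, adjusted p = 4.31e-06) against MONO.

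SREBF1 (Entrez 6720, chr17:17811334-17836986) encodes a transcription factor of fatty acid synthesis. In MM.1S its RPKM was 3.68, 4.93 and 4.32 in MONO, 29.1, 29.9 and 26.7 in TSW, and 23.9, 28.0 and 26.3 in CO. MONO was low in each library, and the TSW and CO values overlapped. Its log2 fold change was 2.48 (standard error 0.11, adjusted p = 1.10e-07) in TSW vs MONO and 2.36 (standard error 0.11, adjusted p = 8.18e-08) in CO vs MONO, with ratios of mean RPKM of 6.63 and 6.05. RPMI8226 had 42.3 and 46.3 in MONO, 90.4 and 99.5 in TSW, and 99.4 and 107 in CO. MONO was again low, TSW and CO overlapped narrowly, and the ratios to MONO were 2.14 and 2.33. The log2 fold changes in RPMI8226 were 1.08 (standard error 0.08, adjusted p = 9.73e-07) and 1.20 (standard error 0.08, adjusted p = 3.22e-07). SREBF1 overlaps RAI1 in the annotation, which was not called in TSW vs MONO or CO vs MONO of either line.

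SCD (Entrez 6319, chr10:100347233-100364826) encodes the desaturase that makes monounsaturated fatty acids, and it was the most abundant of the 10 genes per length in each condition of both lines. In MM.1S its RPKM was 26.1, 36.0 and 38.9 in MONO, 176, 194 and 178 in TSW, and 170, 171 and 169 in CO. The conditions did not overlap, with TSW highest. The log2 fold change was 2.42 (standard error 0.13, adjusted p = 5.04e-07) in TSW vs MONO and 2.32 (standard error 0.13, adjusted p = 4.88e-07) in CO vs MONO, with ratios of mean RPKM of 5.43 and 5.05. RPMI8226 had 141 and 138 in MONO, 304 and 302 in TSW, and 343 and 348 in CO. The conditions did not overlap there either, with CO highest. The ratios to MONO were 2.16 and 2.47, and the log2 fold changes 1.11 (standard error 0.06, adjusted p = 1.34e-07) and 1.30 (standard error 0.06, adjusted p = 3.33e-08). A pseudogene, SCDP1, is annotated and has no row in the tables.

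LPCAT3 (Entrez 10162, chr12:6976185-7018476) encodes an acyltransferase that places polyunsaturated fatty acids in phospholipids. In MM.1S its RPKM was 17.3, 18.5 and 19.3 in MONO, 33.3, 31.9 and 30.8 in TSW, and 32.3, 33.3 and 27.9 in CO. The coculture conditions overlapped above MONO. On the log2 scale LPCAT3 rose by 0.77 (standard error 0.09, adjusted p = 1.71e-04) in TSW vs MONO and 0.73 (standard error 0.09, adjusted p = 2.38e-04) in CO vs MONO. RPMI8226 had 24.1 and 23.1 in MONO, 37.7 and 38.0 in TSW, and 39.2 and 38.4 in CO. Each coculture library was above each MONO library, and CO lay just above TSW. The log2 fold changes there were 0.66 (standard error 0.07, adjusted p = 1.31e-05) and 0.70 (standard error 0.07, adjusted p = 6.64e-06). LPCAT3 overlaps EMG1, which was not called against MONO in MM.1S and was called lower in RPMI8226, with log2 fold changes of -0.78 and -1.34.

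SMPDL3A (Entrez 10924, chr6:122789258-122809720) encodes a secreted phosphodiesterase that is an LXR target in macrophages. In MM.1S its RPKM was 2.08, 2.30 and 2.69 in MONO, 2.26, 2.17 and 3.66 in TSW, and 3.59, 2.15 and 3.04 in CO. The conditions overlapped. For SMPDL3A the log2 fold change was 0.12 (standard error 0.17, adjusted p = 0.631) in TSW vs MONO, which was -0.06 without TSW replicate 3, and 0.21 (standard error 0.17, adjusted p = 0.361) in CO vs MONO. In RPMI8226, SMPDL3A had 1.83 and 1.85 in MONO, 6.05 and 5.88 in TSW, and 8.14 and 8.61 in CO. The conditions stood apart in the order MONO, TSW, CO. The ratios of mean RPKM to MONO were 3.24 and 4.55, with log2 fold changes of 1.29 (standard error 0.09, adjusted p = 7.27e-07) and 1.72 (standard error 0.09, adjusted p = 6.77e-08). SMPDL3A was called in RPMI8226 and not in MM.1S, and the difference between the lines was not tested.

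**Figure D4:**
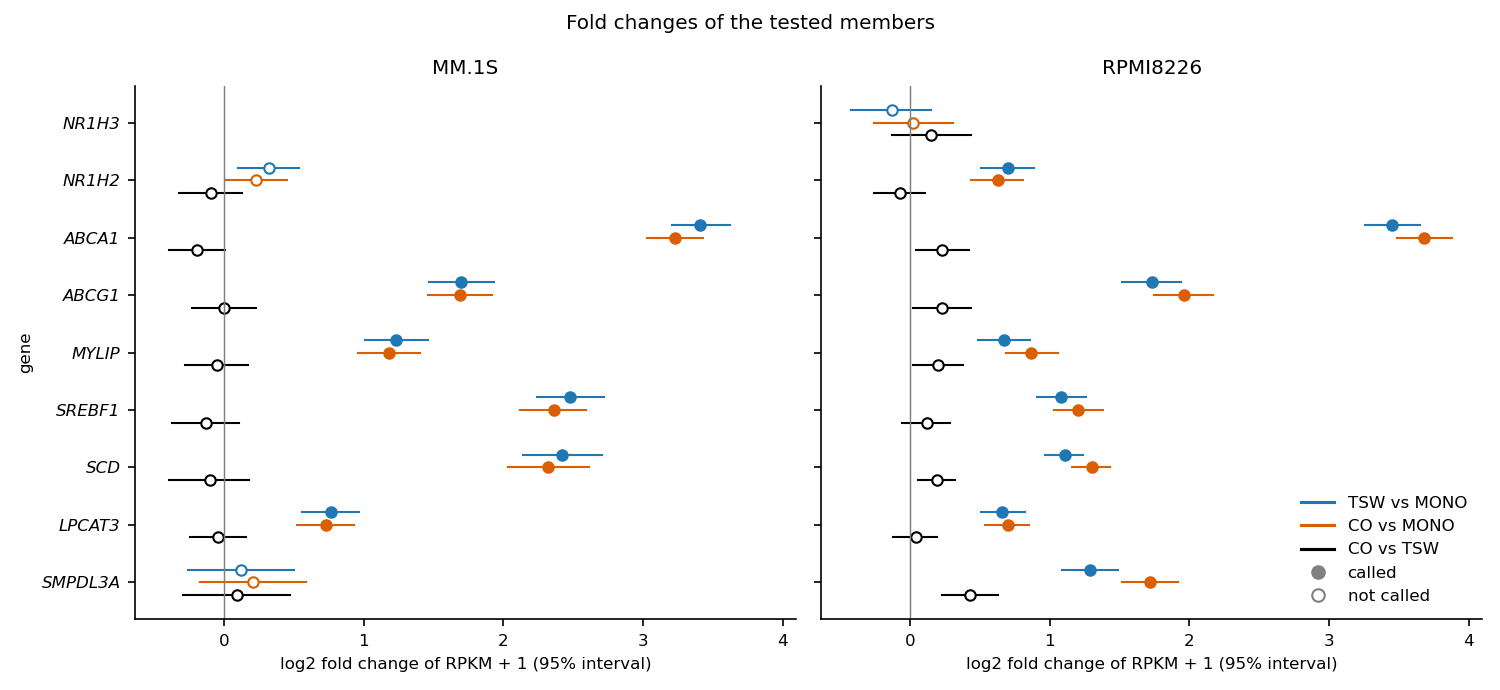
Log2 fold changes of RPKM + 1 for the tested genes by line, 3 comparisons per gene, with 95% intervals from limma; filled points were called and open points were not. The largest was ABCA1, at 3.41 and 3.23 against MONO in MM.1S and 3.45 and 3.68 in RPMI8226, and no point of CO vs TSW was filled.

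CO vs TSW asks what the lower chamber adds to the shared medium. In MM.1S the log2 fold changes of the tested genes ran from -0.19 for ABCA1 (95% interval -0.39 to 0.01, adjusted p = 0.998) to 0.09 for SMPDL3A. ABCG1 was at 0.00, with an interval of -0.23 to 0.23. The ABCA1 and SCD values of CO lay below those of TSW without overlap, and the difference for SCD was -0.10 (interval -0.39 to 0.18), or -0.01 with quantile normalization. In RPMI8226 the log2 fold change of SMPDL3A was 0.43 (interval 0.23 to 0.63, adjusted p = 0.00710) and that of SCD was 0.19 (interval 0.06 to 0.32, adjusted p = 0.0410), and both were below the fold change threshold. ABCA1 was 0.23 higher in CO (interval 0.04 to 0.42, adjusted p = 0.0716) and ABCG1 also 0.23 (interval 0.02 to 0.44, adjusted p = 0.0981), with adjusted p-values by voom of 0.0220 and 0.0351. MYLIP was 0.20 higher (adjusted p = 0.0929), SREBF1 0.12 higher (adjusted p = 0.287) and LPCAT3 0.04 higher (adjusted p = 0.739) on the same scale. NR1H2 was -0.09 in MM.1S and -0.07 in RPMI8226, and NR1H3 was 0.15 in RPMI8226 (adjusted p = 0.397). The stromal marker sums rose from TSW to CO in both lines, and their part in these values was not tested.

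Side by side, mean RPKM in MONO was higher in RPMI8226 than in MM.1S for most of the genes, with ratios of 9.56 for ABCA1, 13.2 for ABCG1, 10.3 for SREBF1, 7.94 for NR1H3, 4.58 for MYLIP and 4.16 for SCD. In TSW the ratios were 1.88 for ABCA1, 4.17 for ABCG1, 3.32 for SREBF1, 2.59 for MYLIP and 1.66 for SCD. The lines were thus nearer to each other in TSW than in MONO for these 5 genes. The ratio for NR1H3 stayed at 7.05 in TSW and 7.07 in CO. LPCAT3 had ratios of 1.28, 1.18 and 1.24 in MONO, TSW and CO, and NR1H2 had 0.742, 0.977 and 0.992. SMPDL3A went the other way, from 0.781 in MONO to 2.21 in TSW and 2.86 in CO. These ratios were not tested.

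The genes whose expression was most like that of ABCA1 were found by Pearson's r of log2(RPKM + 1) over the 9 MM.1S libraries, among 9396 genes compared. They were BCL6, STAT3, ALPK1, GBP2 and SOCS3, with r of 0.999, 0.998, 0.998, 0.998 and 0.997. Over the 6 RPMI8226 libraries their r with ABCA1 was 0.999, 0.994, 0.999, 0.999 and 0.996. For ABCG1 the most alike were ICAM1, BHLHE40, VEGFA, BCL6 and SREBF1, with r of 0.996, 0.996, 0.995, 0.994 and 0.994 in MM.1S and of 0.985, 0.993, 0.993, 0.997 and 0.994 in RPMI8226. In both lines the libraries split into MONO and coculture, so the r values are a description with no p. In MM.1S, BCL6 had mean RPKM values of 0.167 (MONO), 4.32 (TSW) and 3.98 (CO), and SOCS3 had 0.129, 64.4 and 68.6. Among the other genes of the pathway, r with ABCA1 in MM.1S was 0.996 for SREBF1 (rank 11), 0.993 for ABCG1 (rank 20), 0.991 for SCD (rank 28), 0.988 for MYLIP (rank 42) and 0.977 for LPCAT3 (rank 115). It was 0.794 for NR1H2 and 0.328 for SMPDL3A, which in RPMI8226 had 0.972 and 0.983.

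Lists of related genes were counted with the same calls, and each median log2 fold change is set against 0.01 in MM.1S and, in RPMI8226, -0.08 for TSW vs MONO and -0.09 for CO vs MONO over all tested genes. Of all tested genes, 6.48% were called higher and 4.16% lower in TSW vs MONO of MM.1S, 7.13% and 4.65% in CO vs MONO of MM.1S, 14.5% and 17.9% in TSW vs MONO of RPMI8226, and 16.4% and 22.9% in CO vs MONO of RPMI8226. Of 15 other LXR targets, 3 were tested in MM.1S and 2 in RPMI8226. In MM.1S 1 was called higher in each comparison with MONO, MERTK, with log2 fold changes of 0.80 in TSW and 0.74 in CO and a mean RPKM that rose from 0.853 in MONO to 2.23 and 2.09, so that it reached the minimum only through the coculture. The list medians were 0.19 and 0.14. In RPMI8226, LPL was called lower in CO at -0.95. Of 15 partners and coregulators of LXR, 13 were tested in each line. In TSW vs MONO of MM.1S limma called 0 of them, with 2 at an unadjusted p under 0.05 and 1 by voom, and their median of 0.04 lay between -0.03 and 0.03 with other scalings. There 2 were called lower without MONO replicate 3, and 1 without MONO replicate 2, TSW replicate 1 or TSW replicate 2. In CO vs MONO 2 were called lower, RXRA at -0.69 and GPS2 at -0.76, with a median of -0.07, and 1 was called higher without MONO replicate 3. In TSW of RPMI8226, GPS2 was called lower, from a mean RPKM of 42.0 to 20.6, the list median was -0.18, and 1 was called higher without MONO replicate 2 or TSW replicate 2. In CO of RPMI8226, GPS2 was called lower at -0.99 and NCOA3 higher at 0.74, with a list median of -0.13.

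Of 9 genes of oxysterol synthesis and removal, 1 was tested in MM.1S, where limma and voom called 0 in either comparison, with 1 at an unadjusted p under 0.05 for TSW vs MONO and 0 for CO vs MONO, at values of 0.20 and -0.04. In RPMI8226, 2 were tested and HSD3B7 was called higher, at 0.98 in TSW and 0.89 in CO, with medians of 0.77 and 0.62, and 2 were called higher in TSW without TSW replicate 1. The other genes of this list were below the minimum RPKM.

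The list of sterol synthesis and uptake, which SREBF2 controls, held 27 genes. Of 25 tested in MM.1S, 6 were called higher and 0 lower in TSW vs MONO (median 0.32), and 5 higher and 1 lower in CO vs MONO (median 0.25). The count called lower was 1 in TSW without MONO replicate 1 and 0 in CO without CO replicate 1. INSIG1 rose in MM.1S from a mean RPKM of 32.0 in MONO to 91.7 in TSW and 79.3 in CO, with log2 fold changes of 1.49 (adjusted p = 3.60e-06) and 1.29 (adjusted p = 9.38e-06), and STARD4 had 0.82 and 0.81. Of 26 tested in RPMI8226, 7 were called higher and 3 lower in each comparison with MONO, where 14.5% of all tested genes were called higher and 17.9% lower in TSW, and 16.4% and 22.9% in CO. The list medians were 0.16 and 0.02. The counts there were 6 higher in TSW without MONO replicate 2, TSW replicate 1 or TSW replicate 2, and 2 lower without MONO replicate 1 in TSW or CO replicate 1 in CO. INSIG1 had log2 fold changes of 1.43 and 1.44 there and SREBF2 had 1.32 and 1.28, while MSMO1 reached 1.39 and ACAT2 -1.29 in CO.

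The list of fatty acid synthesis, downstream of SREBF1, held 16 genes. Of 12 tested in MM.1S, 5 were called higher and 0 lower in TSW vs MONO (median 0.44), and 4 higher and 0 lower in CO vs MONO (median 0.45). Mean RPKM rose from 5.83 in MONO to 12.5 in TSW and 13.4 in CO for ACACA, from 18.1 to 36.4 and 36.3 for ME1, and from 8.39 to 17.2 and 17.8 for ACSL3. Of 14 tested in RPMI8226, 4 were called higher and 2 lower in TSW (median 0.13), and 1 higher and 2 lower in CO (median 0.10). The count called higher in TSW was 2 without TSW replicate 2, 3 without MONO replicate 1 or 2, and 5 without TSW replicate 1, and that in CO was 2 without MONO replicate 1. The calls lost without TSW replicate 2 were ACSS2 (0.48) and LPIN1 (0.57), which were chosen after their values were seen. ELOVL6 rose by 1.19 and 1.39, whereas SCD5, a relative of SCD, had -1.16 and -0.99 and AGPAT2 had -1.13 and -1.56. Of 8 relatives of LPCAT3 in phospholipid remodelling, 8 were tested in MM.1S, and LPCAT1 was the 1 called, lower, at -1.26 in TSW and -1.17 in CO, with medians of -0.03 and -0.06. In RPMI8226, 7 were tested, and 3 were called higher and 3 lower in each comparison with MONO, with medians of 0.34 and 0.35, and 2 lower in TSW without TSW replicate 1. MBOAT1 had 1.28 and 1.27, PLA2G4A had 1.10 and 0.97, and LPCAT1 had -0.95 and -1.07.

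**Figure D5:**
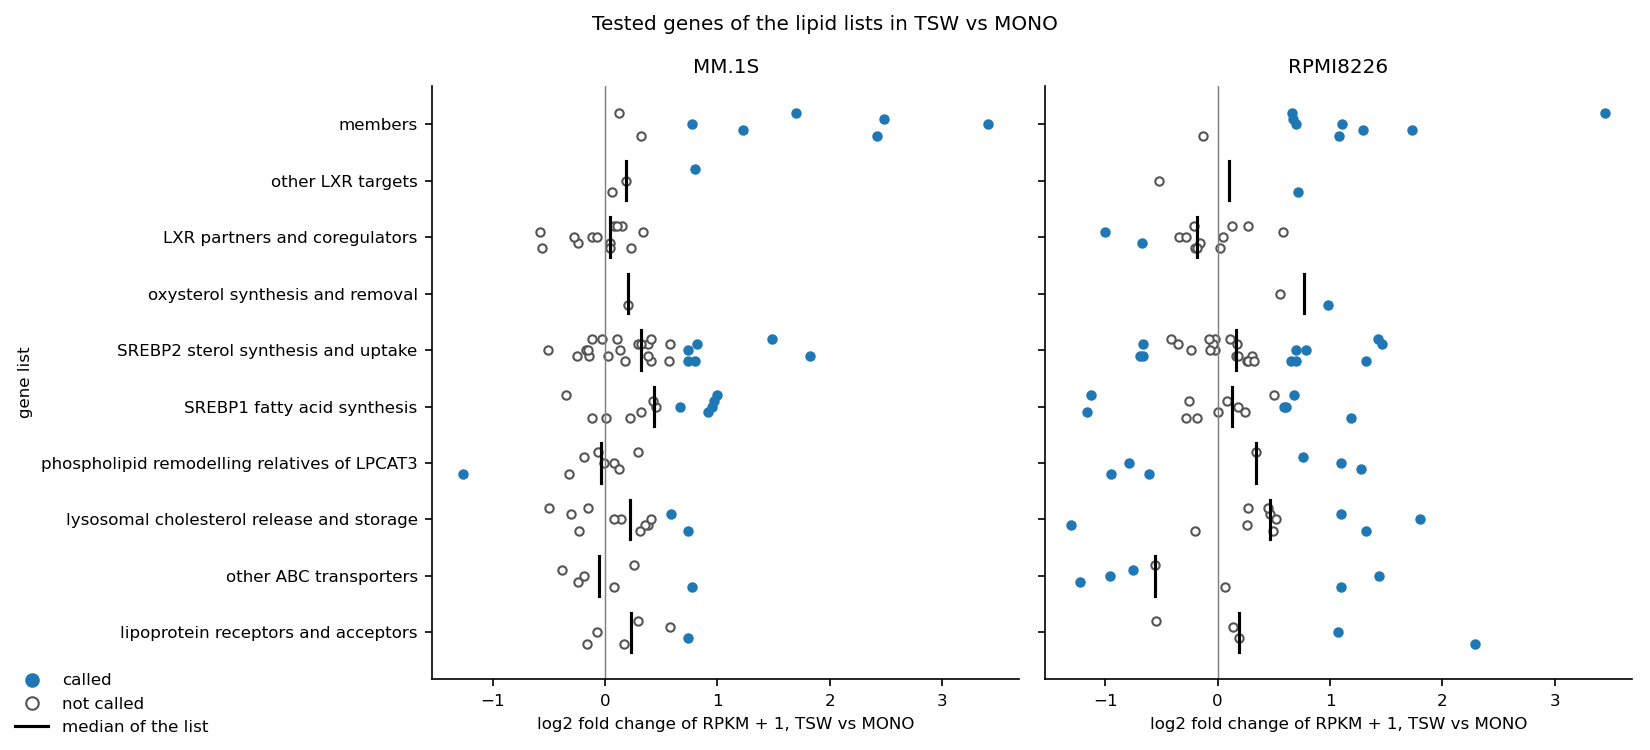
Log2 fold changes of RPKM + 1 in TSW vs MONO for the tested genes of each lipid list by line, 1 point per gene, filled where called, with a bar at the median of each list other than the 10 genes themselves. The list of LXR partners and coregulators had a median of 0.04 in MM.1S, which lay between -0.03 and 0.03 with other scalings, and the list of fatty acid synthesis had 0.44.

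Of 14 genes of lysosomal cholesterol release and storage, 12 were tested in MM.1S and 2 were called higher in each comparison with MONO (medians 0.23 and 0.14), NPC1 at 0.74 and 0.64 and NCEH1 at 0.59 and 0.61. Both calls rested on MONO replicate 1. Without it 1 gene was called lower in TSW, NPC1 was 0.55 in TSW and 0.44 in CO, and NCEH1 was 0.40 and 0.42, below the fold change threshold. Without TSW replicate 1 or 3, NCEH1 was 0.58 in TSW vs MONO, also below it. With quantile normalization NCEH1 fell below the threshold in both comparisons, at 0.53 and 0.54, and NPC1 in CO, at 0.57. In RPMI8226, 11 were tested, and 3 were called higher and 1 lower in each comparison with MONO, with medians of 0.47 and 0.39. NPC2 had 1.80 and 1.75, SMPDL3B, a relative of SMPDL3A, had 1.32 and 1.19, SMPD1 had 1.10 and 1.25, and TMEM97 had -1.30 and -1.75.

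Among 13 other ABC transporters, 6 were tested in MM.1S, with medians of -0.05 in TSW and -0.02 in CO. In RPMI8226, 7 were tested, with 2 called higher and 3 lower in TSW (median -0.56) and 2 higher and 4 lower in CO (median -0.84). ABCA7 had 1.44 and 1.60, and ABCC4 had -1.22 and -1.39. Among 11 lipoprotein receptors and acceptors, 6 were tested in MM.1S. VLDLR was called higher in TSW at 0.74, with a mean RPKM of 0.865 in MONO, so that it reached the minimum only through the coculture. In TSW 2 were called higher without MONO replicate 2, MONO replicate 3 or TSW replicate 1. In CO vs MONO of MM.1S limma called 0 of the 6, with 3 at an unadjusted p under 0.05 and 1 called by voom, and the median was 0.23 in both comparisons. In CO 2 were called higher without MONO replicate 2 and 1 without MONO replicate 3. In RPMI8226, 5 were tested. APOL1 rose by 2.29 in TSW and 2.65 in CO and APOL2 by 1.07 and 1.19, both called, and SCARB1 was called lower in CO at -0.98, with 1 gene called lower in TSW without TSW replicate 2. The median was 0.19 in TSW and -0.04 in CO of RPMI8226, and the latter turned to between 0.06 and 0.07 with other scalings.

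In CO vs TSW of RPMI8226, 3 genes of these lists were called, TBL1XR1 and MSMO1 higher and ACAT2 lower, at 0.68, 0.61 and -0.60. TBL1XR1 was 1 of 13 tested partners and coregulators of LXR. Of 26 tested genes of sterol synthesis and uptake, 1 was called higher and 1 lower. Over all tested genes, 1.90% were called higher and 2.39% lower in this comparison. TBL1XR1 was chosen after its values were seen. The MSMO1 call was lost without TSW replicate 2 (0.41), CO replicate 1 (0.66) or CO replicate 2 (0.55) and with no expression filter. ACAT2 fell below the threshold without TSW replicate 2 (-0.55) or CO replicate 1 (-0.53) and under both other scalings. Cell types in which the pathway is well studied were checked too. Of 6 macrophage markers 1 was tested in MM.1S, where limma and voom called 0, with 1 at an unadjusted p under 0.05, at log2 fold changes of 0.32 in TSW and 0.36 in CO. In RPMI8226, 3 were tested and called higher, CSF1R at 1.35 and 1.63, AIF1 at 1.30 and 1.42, and CD68 at 1.47 and 1.70. The shares called higher over all genes tested in this line were 14.5% (TSW) and 16.4% (CO). CD14, MRC1 and LYZ were below the minimum there. Mean RPKM of CD14 was 0.0783 (MONO), 0.0309 (TSW) and 0 (CO). That of MRC1 was 0.0207, 0 and 0, and that of LYZ was 0.0223, 0.200 and 0.247. CSF1R had a mean RPKM of 0.124 in MONO and reached the minimum only through TSW and CO. Of 3 hepatocyte markers 0 reached the minimum RPKM for a test in either line.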

How the data were processed

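RNA-Seq libraries of MM.1S (3 per condition) and RPMI8226 (2 per condition) were analysed. The authors, per the labels, aligned reads with Subread to hg38 and counted PETs with featureCounts. The deposited values are log2(RPKM + 1) plus an offset of 0.0001, which was subtracted. The spacing of values within a library gave PETs per gene, and 100% of nonzero values were whole PETs within a tolerance of 0.05. Depths and limits from them cover counting error only.

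Tests used limma 3.58.1 in R 4.3.3 (lmFit, contrasts.fit, eBayes with a mean-variance trend, two-sided), with the 3 conditions of a line in 1 fit and no covariate. A gene was tested from a mean RPKM of 1 upward, and p-values were adjusted by Benjamini-Hochberg within a comparison. The procedure was tested on simulated data. Other software was Python 3.11.15, numpy 2.4.6, pandas 2.3.3 and matplotlib 3.10.9.

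The members and lists were chosen with earlier results of these data known. Named genes are the 10 members, the 3 called genes of each list with the largest absolute log2 fold change in a comparison with MONO, the 5 most like ABCA1 or ABCG1, the plasma cell markers, and the 3 most abundant stromal markers in CO. Not every gene of this rule is shown. The lists were other LXR targets, LXR partners and coregulators, oxysterol genes, sterol synthesis and uptake, fatty acid synthesis, phospholipid remodelling, lysosomal cholesterol, other ABC transporters, lipoprotein receptors, and plasma cell, stromal, macrophage and hepatocyte markers.

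Alternatives were a pseudocount of 0.1, no filter or a minimum mean RPKM of 5, scaling by median of ratios or by quantiles, a replicate block, only the compared conditions in the fit, no trend, no fold change threshold, voom on PETs, and each library left out in turn.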

Additional observations from a re-analysis of the deposited data

Results flagged for a closer look

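In CO vs TSW, ABCA1 moved in opposite directions in the 2 lines, and SCD did so in RPKM as given. ABCA1 in MM.1S was lower in each CO library (8.98 to 9.74 RPKM) than in each TSW library (9.92 to 11.5), and in RPMI8226 it was higher in each CO library (23.5 and 24.3) than in each TSW library (20.6 and 19.8). Its log2 fold change was -0.19 in MM.1S and 0.23 in RPMI8226, a difference between lines of 0.42. SCD in MM.1S was lower in each CO library (169 to 171) than in each TSW library (176 to 194), and in RPMI8226 it was higher in each CO library (343 and 348) than in each TSW library (304 and 302). Its log2 fold change was -0.10 in MM.1S and 0.19 in RPMI8226, a difference of 0.29, but with quantile normalization the value in MM.1S was -0.01, so SCD had next to no movement there. The differences between the lines were not tested, since the tables were normalized separately, and neither gene was called in CO vs TSW of either line.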

How the results depend on the processing

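Under the alternatives, counts of genes called higher among the 10 lay between 5 and 7 in TSW vs MONO and 5 and 6 in CO vs MONO of MM.1S, were 8 and 7 to 8 in RPMI8226, and were 0 in CO vs TSW of MM.1S. The count called lower was 0 in each. The shares of all tested genes given in the results belong to the settings used there, and no shares are given for the alternatives. Without a fold change threshold 2 were higher in CO than TSW of RPMI8226, SCD (0.19) and SMPDL3A (0.43), and NR1H2 was called in TSW vs MONO of MM.1S (0.32). The lower bounds of 5 came from a minimum mean RPKM of 5, which removed ABCG1. With a replicate block, 6, 6, 0, 8, 8 and 0 genes were called higher in the comparisons in the order MM.1S TSW vs MONO, CO vs MONO, CO vs TSW and the same for RPMI8226, as without it. Deviations of same-numbered libraries correlated across genes between -0.380 and 0.286.

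Signs changed only where values were near 0 or libraries overlapped, and the cause was not tested. With each library left out in turn, SMPDL3A in TSW vs MONO of MM.1S ran from -0.06 to 0.22. In CO vs TSW of MM.1S the ranges were -0.08 to 0.06 for ABCG1, -0.10 to 0.03 for MYLIP, -0.09 to 0.04 for LPCAT3 and -0.03 to 0.27 for SMPDL3A, and ABCG1 was 0.00 with median-of-ratios scaling. NR1H3 in RPMI8226 ran from -0.27 to 0.00 in TSW vs MONO and from -0.11 to 0.16 in CO vs MONO. NR1H2 in CO vs MONO of RPMI8226 ran from 0.55 to 0.71, and the call was lost at 0.55. With 1 library of RPMI8226 left out, its condition holds 1, which is assumed to vary like the other conditions.

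The size of change of ABCA1 and ABCG1 in MM.1S depended on the pseudocount. With 0.1 the log2 fold changes were 5.77 and 5.57 for ABCA1 and 3.23 and 3.22 for ABCG1 in TSW vs MONO and CO vs MONO. Scalings moved the median of all tested genes by at most 0.1. APOE in both lines and NR1H3 in MM.1S were below the minimum RPKM. With no filter all 10 genes were tested, and against MONO 6 in MM.1S and 8 in RPMI8226 were called higher and 0 lower, in TSW and CO alike. The set of all tested genes is larger without the filter, so the shares given in the results do not apply to these counts.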
